A study of Mus musculus with 113 samples.

Results

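Differentiation of the Fyn KO line was followed here from day 0 to day 4 of neural induction. The material is 6 libraries of the series' 113 samples, 3 taken at day 0 and 3 at day 4, chosen by their labels for genotype and for days of induction. Another 6 libraries, of the WT line at the same days, were used to show where the KO line differed. They also entered the choice of genes tested and the estimate of spread behind each KO test. E14 is a mouse embryonic stem cell (mESC) line. The KO libraries carry the genotype Fyn-KO. The methods describe this line as a single clone made by CRISPR/Cas9 with a pair of guides that together deleted a stretch of Fyn including its start codon, so that differences between KO and WT cannot be told apart from differences between a clone and its parent line. The WT libraries are E14 cells without that deletion. The study followed mESCs on their way to neural progenitors in cell populations and in single cells, and it made the KO line to ask how Fyn bears on that course. Its protocols describe a monolayer culture in N2B27 medium and a floating culture of aggregates (SFEB), without saying which of them gave these libraries. Nothing in the labels says that the 3 replicates of a group were separate cultures, so p-values measure the spread between these libraries, which may be technical.

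Fyn encodes a non-receptor tyrosine kinase of the Src family. Mouse ES cells kept with LIF hold the naive state of the early epiblast through a circuit of transcription factors that includes Nanog, Klf4, Esrrb and Tfcp2l1. When these cells are released towards the neural lineage they first take down this circuit and pass through a formative state like that of the epiblast after implantation, marked by Fgf5, Otx2 and Pou3f1. Neural progenitors, marked by Sox1, Pax6 and Nes, follow.

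Values are given as FPKM (fragments per length of transcript and per total of mapped fragments, a level per length) for replicates 1, 2 and 3 in that order. A difference is day 4 minus day 0 in the mean of log2(FPKM + 1), with its standard error, which understates the change of genes near or below 1 FPKM. The test is limma's, two-sided, fitted to 12257 genes with at least 1 FPKM in at least 3 of the 12 E14 libraries out of 23107 listed, and a gene is said to have risen or fallen where its Benjamini-Hochberg adjusted p was below 0.05. An exact test of 3 libraries against 3 cannot give a p below 0.1 and was not used. In bulk libraries fewer cells of a type and less RNA per cell cannot be told apart. FPKM values carry no read numbers, so the depth of the libraries is unknown. The KO libraries listed 6633 to 7982 genes at 0 and 10713 to 11668 genes at 1 FPKM or more. Of 409 genes followed by name or by list, 137 passed the test, and 75 of them also passed it without each of the 12 libraries in turn. Such calls are referred to as held, and for the others the libraries without which a call was lost are named or counted.

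The targeted gene was low in the KO line throughout. Fyn stood at 0.598, 0.598 and 1.10 FPKM in the KO libraries at day 0 and at 1.19, 1.13 and 1.58 at day 4, against 3.21, 2.74 and 4.00 at day 0 and 9.44, 4.54 and 6.76 at day 4 in WT. Every KO value lay below every WT value. Between the days the KO line differed by 0.39 ± 0.24 (adjusted p = 0.281), and exons beyond the deletion can still give reads. The day 0 libraries carried the genes that define ES cells, with Pou5f1 at 627 to 660, Sox2 at 154 to 162 and Nanog at 251 to 348 FPKM.

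The third KO library of day 0 stood apart from the other two. Across all genes tested, replicates 1 and 2 of day 0 correlated at 0.981 on the log2 scale, replicate 3 correlated with them at 0.931 to 0.946 and with the day 4 libraries at 0.914 to 0.938, and replicates 1 and 2 correlated with day 4 at 0.86 to 0.911 (Pearson, across genes, which are not independent). By a gap of at least 2 log2 units, 112 genes were above and 59 below both other libraries in replicate 3, while replicates 1 and 2 differed by that much from each other at 33 genes. Genes of the lists followed here were among those higher in this library. Otx2, a transcription factor of the formative epiblast, was at 0.397, 0.395 and 12.4 FPKM. Lefty1, a secreted inhibitor of Nodal, was at 2.60, 1.18 and 53.0 FPKM. Spry4, a feedback inhibitor of FGF signalling, was at 2.38, 0.107 and 37.6 FPKM. Among the followed genes that were lower in this library, the Wnt target Sp5 was at 49.9, 66.8 and 0.255 FPKM and Axin2 at 28.7, 26.0 and 2.44 FPKM. Of the naive genes, Tfcp2l1 was lower in this library, at 251, 265 and 47.5 FPKM, and Nanog was at 286, 348 and 251 FPKM. For Otx2 and Lefty1 replicate 3 was on the side of day 4, within or below the range of the day 4 values, while for Id1, a target of BMP signalling, it was at 72.5 FPKM against 6.35 and 4.75 at day 0 and 3.41 to 3.61 at day 4. Results that rest on this library are given without it too.

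**Figure D1:**
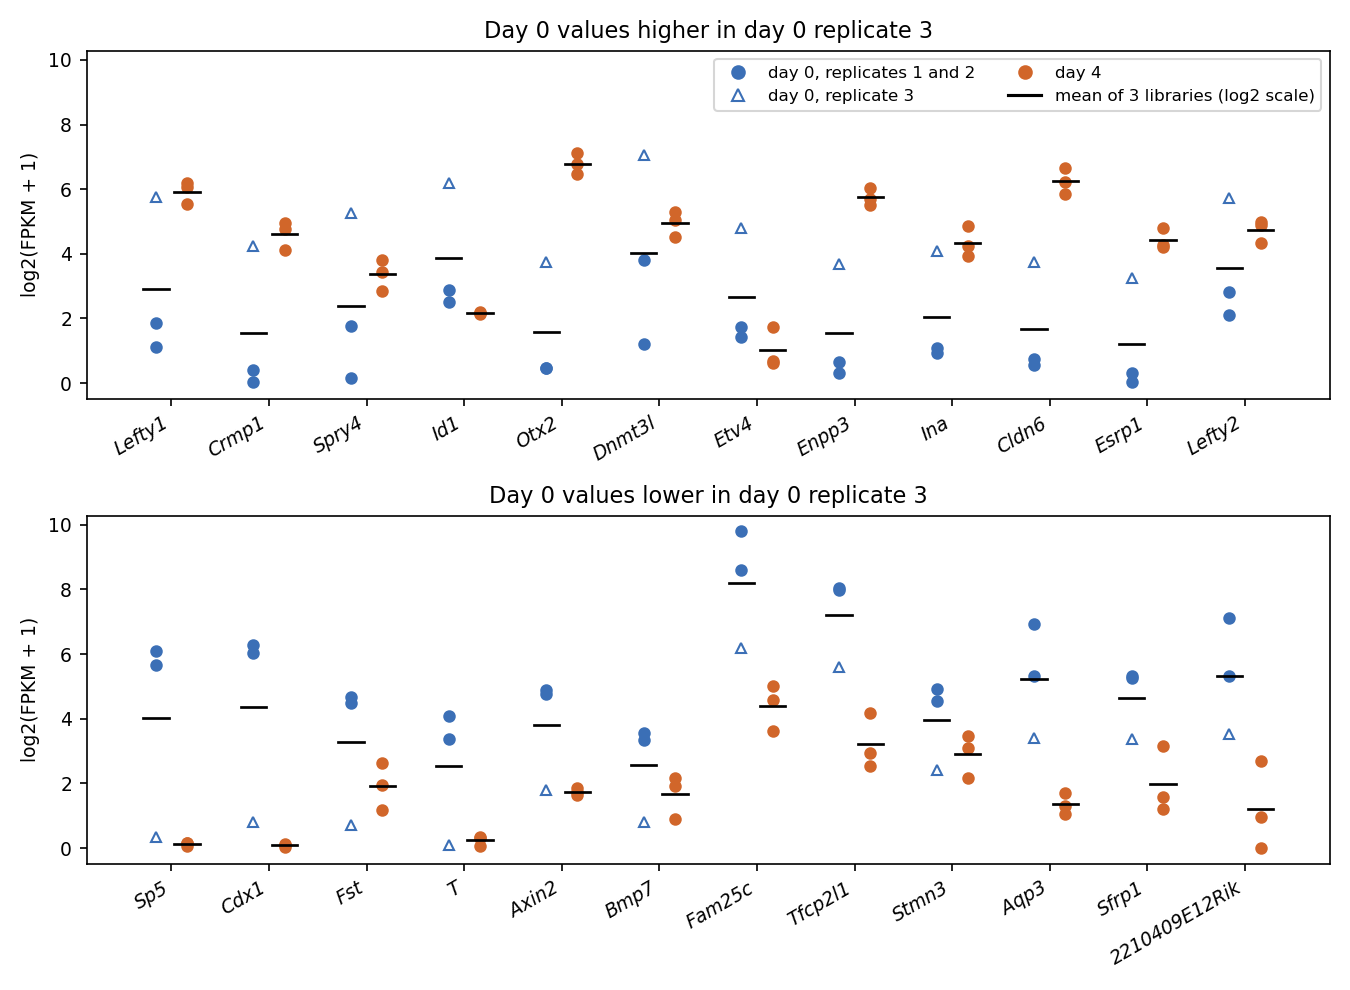
Level on the scale log2(FPKM + 1) of 12 genes higher and 12 lower in day 0 replicate 3 of the Fyn KO line, picked among the genes followed here for their gap to the other day 0 libraries (blue circles, day 0 replicates 1 and 2; open triangles, day 0 replicate 3; orange circles, 3 day 4 libraries; bars, means on the log2 scale). For Sp5, Cdx1 and T replicate 3 lies with the day 4 libraries below 1 FPKM, and for Id1 and Etv4 it lies above every other KO library.

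Between day 0 and day 4 of the KO line 2370 genes, 19.3% of those tested, passed the test, 1443 of them higher (11.8%) and 927 lower (7.56%) at day 4. The difference was at least 1 log2 unit in size for 853 of the higher and 444 of the lower genes, and at least 2 for 199 and 106. The 3 day 4 values lay above or below all 3 day 0 values at 38.7% of the genes tested (21.9% above, 16.8% below). At an unadjusted p below 0.05 the share was 34.8%. The median difference over all genes tested was 0.05. Counts of list members that rose or fell are given beside the shares over all genes tested that were called in the same direction. The share of calls that were higher, 60.9%, was 51% after quantile normalization and 65.9% after upper-quartile scaling. Without day 0 replicate 3 the test called 3064 genes, and without day 0 replicate 1, day 0 replicate 2 or day 4 replicate 3 it called 1283, 1043 and 1158.

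Naive pluripotency genes were mostly lower at day 4. Of 19 members tested, 11 fell and 0 rose (all genes 7.56% and 11.8%), with a median difference of -1.86 against 0.05 over all genes. At 15 of the 19 the day 4 libraries lay below all day 0 libraries (all genes 16.8%). Klf4, a transcription factor of the naive circuit, was at 134, 141 and 88.8 FPKM at day 0 and at 4.09, 11.2 and 8.99 at day 4. The groups were far apart, and Klf4 fell by 3.82 ± 0.46 (adjusted p = 0.000461). Tbx3, a T-box factor of the same circuit, went from 59.6, 53.5 and 20.6 FPKM to 1.46, 1.94 and 1.71. Its 3 day 4 values were close together, and the difference was -3.94 ± 0.40 (adjusted p = 0.000232). Tfcp2l1, which acts downstream of LIF and of Gsk3 inhibition, had 251, 265 and 47.5 FPKM at day 0 and 4.82, 17 and 6.6 at day 4. Day 0 replicate 3 was the lowest of its group but above every day 4 library, and Tfcp2l1 fell by 4.00 ± 0.60 (adjusted p = 0.00159). Klf5, Tcl1, Esrrb, Nr0b1 and Nanog fell by 3.09, 2.99, 2.28, 1.99 and 1.66 log2 units. These 8 calls held. The calls of Zfp42, Tdh and Nr5a2 were lost without day 4 replicate 3 (and those of Tdh and Nr5a2 also without day 0 replicates 1 or 2 or day 4 replicate 1), with adjusted p of at most 0.0507, 0.0597 and 0.0948.

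Day 4 levels of the naive genes were not at zero, and they differed between the 3 libraries. Replicate 2 of day 4 had the highest value of its group for Klf4, Tbx3, Tfcp2l1, Klf5, Esrrb, Nr5a2, Tcl1 and Nr0b1, among others. Esrrb, a nuclear receptor of the naive circuit, was at 176, 170 and 137 FPKM at day 0 and at 17.8, 64.4 and 28.4 at day 4. Nanog was at 286, 348 and 251 FPKM at day 0 and still at 67.6, 108 and 107 at day 4. The list summed to 4503, 5332 and 3819 FPKM at day 0 and to 1414, 2228 and 1861 at day 4. Of the 8 members that did not pass, Klf2 (141, 153 and 124 against 33.1, 115 and 46.6 FPKM, adjusted p = 0.125) and Prdm14 (20.5, 26.2 and 7.62 against 3.66, 6.52 and 2.91 FPKM, adjusted p = 0.053) were lower in every day 4 library. Prdm14 passed without day 0 replicate 3 (adjusted p = 0.0158). Dppa3, a maternal factor also made in naive ES cells, was the member with values on the other side, at 0.640, 10.0 and 0.876 FPKM at day 0 and 13.7, 26.3 and 20.8 at day 4 (2.67 ± 1.27, adjusted p = 0.16).

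Core pluripotency genes moved in both directions. Pou5f1, which encodes Oct4, was at 627, 634 and 660 FPKM at day 0 and at 374, 325 and 313 at day 4. Replicates of each day were close, and Pou5f1 fell by 0.93 ± 0.14 (adjusted p = 0.00158). Sox2, its partner on DNA, which neural progenitors also express, was at 162, 154 and 155 FPKM at day 0 and 87.9, 178 and 127 at day 4, groups that overlapped. Over the 12 members of the list 3 rose and 2 fell (all genes 11.8% and 7.56%), with a median of -0.08, and without day 4 replicate 3 the list had 0 rises and 2 falls. The other fall was that of Gdf3, a ligand of the TGF-beta family (-1.17 ± 0.25, adjusted p = 0.00854), and its call and that of Pou5f1 held. Lin28a, an RNA-binding protein that blocks let-7 maturation, rose from 13, 2.50 and 80.7 FPKM to 125, 108 and 126 (2.92 ± 0.92, adjusted p = 0.0454). The spread at day 0 was wide, and the adjusted p was 0.00225 without day 0 replicate 3, while the call was lost without any other KO library or 1 of several WT libraries. Mycn, a Myc family gene, rose by 1.29 ± 0.36 (adjusted p = 0.0261) and Lin28b by 1.66 ± 0.53 (adjusted p = 0.0483), and both calls were lost without day 0 replicates 1 or 2 or day 4 replicate 3, among others (at most 0.102 and 0.191). Utf1, a chromatin factor, had 48.8, 6.46 and 280 FPKM at day 0 and 308, 387 and 402 at day 4, with an adjusted p of 0.0641 that became 0.00358 without day 0 replicate 3.

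Formative epiblast genes mostly rose in the KO line. Of 13 members tested, 10 rose and 0 fell (all genes 11.8% and 7.56%), with a median difference of 2.93, and the 10 calls held. Fgf5, an FGF ligand of the epiblast after implantation, was at 0, 0.0232 and 0.132 FPKM at day 0 and at 37.8, 16.7 and 34.2 at day 4. It was near 0 in every day 0 library, replicate 3 included, and it rose by 4.78 ± 0.33 (adjusted p = 2.76e-05). Otx2 went from the day 0 values given above to 86.7, 110 and 137 FPKM. Even the high day 0 library lay far below day 4, and the difference was 5.22 ± 0.80 (adjusted p = 0.00173). Pou3f1, a POU factor also known as Oct6, had 0.0866, 0 and 2.66 FPKM at day 0 and 42.8, 27.4 and 28.9 at day 4, a rise of 4.40 ± 0.42 (adjusted p = 0.000192). Sall2, Dnmt3b, Zic2, Dnmt3a, Fzd7, Zic5 and Lef1 rose by 3.34, 3.02, 2.98, 2.93, 2.90, 2.33 and 1.84. For Sall2, Dnmt3b, Zic2, Dnmt3a, Fzd7 and Zic5 day 0 replicate 3 was the highest of the day 0 libraries and below all day 4 libraries. Tead2 and Foxd3 did not pass, and Foxd3, which both naive and formative cells express, was at 8.95, 14.4 and 8.13 FPKM at day 0 and 8.12, 6.15 and 5.21 at day 4.

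**Figure D2:**
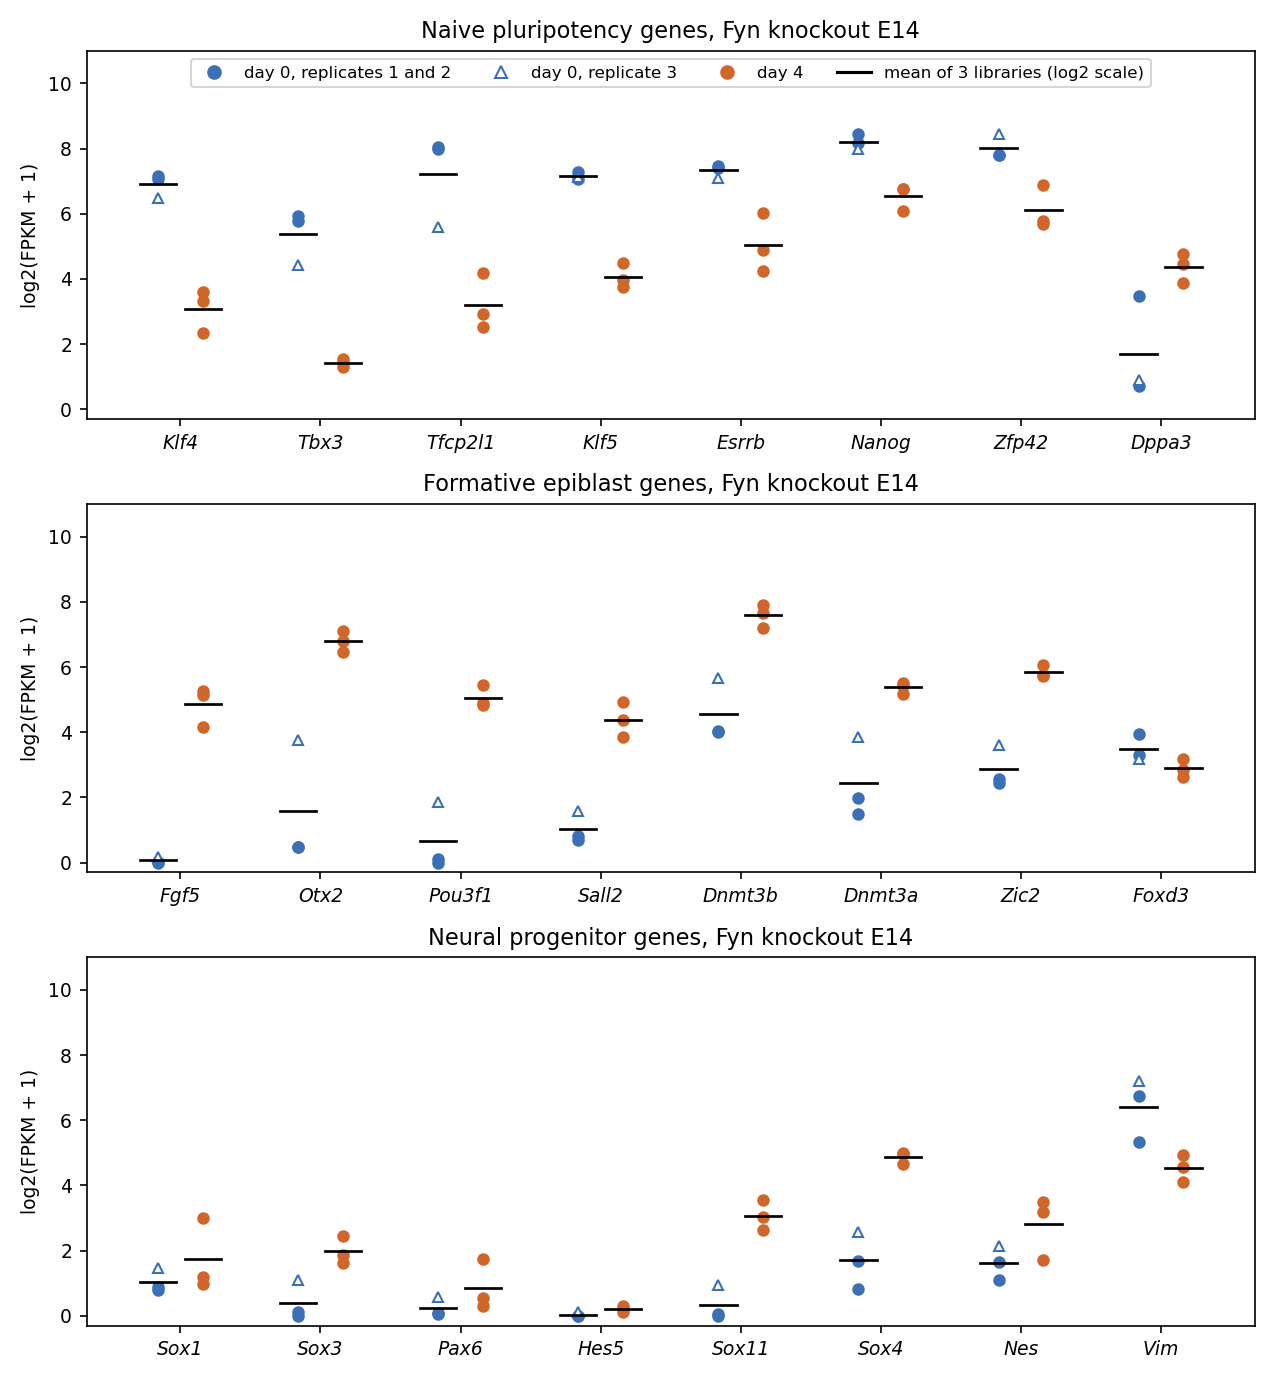
Level on the scale log2(FPKM + 1) of naive, formative and neural progenitor genes in the 6 Fyn KO libraries (blue, day 0, with replicate 3 as an open triangle; orange, day 4; bars, means on the log2 scale). Klf4, Tbx3 and Tfcp2l1 are lower and Fgf5, Otx2 and Pou3f1 higher in all day 4 libraries, while Sox1 exceeds the day 0 values in day 4 replicate 3 alone, at 7.08 FPKM.

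Of the LIF pathway, Socs3, Bcl3 and Stat3 fell. LIF binds Lifr and Il6st, which activate the transcription factor Stat3 through Jak kinases. Of 10 members tested 3 fell and 0 rose (all genes 7.56% and 11.8%), with a median of -0.92, and the 3 calls held. Socs3, a feedback inhibitor that Stat3 induces, was at 36.5, 31.2 and 34.9 FPKM at day 0 and at 1.48, 1.73 and 3.06 at day 4. The 6 values fell into clearly separate groups, and Socs3 fell by 3.54 ± 0.34 (adjusted p = 0.000189). Bcl3, a further Stat3 target, fell by 3.57 ± 0.42 from 37.9, 42.2 and 31.6 FPKM to 1.24, 2.83 and 2.80. Stat3 itself went from 24.5, 28.4 and 24.9 FPKM to 5.37, 8.32 and 6.10 (-1.84 ± 0.28, adjusted p = 0.00176). The receptor genes did not pass, with Lifr at 11.9, 10.5 and 16.4 against 3.0, 9.68 and 4.86 FPKM (adjusted p = 0.0897) and Il6st at 20.9, 27.4 and 13.3 against 6.67, 17.5 and 13.2 FPKM (adjusted p = 0.172).

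The Wnt-induced genes Sp5 and Axin2 had day 0 values in the KO line that differed by library, while the rise of Lef1 held. Beta-catenin acts on DNA through Tcf and Lef factors, whose binding sequence is CTTTGAT, and Stat3 binds TTCNNNGAA, so the 250 bases upstream of the start were searched for 4 Wnt genes and 5 genes of the LIF and naive lists, and the windows of Sp5 and Socs3, which held a match, are printed with the match in capitals. The sequences are RefSeq promoters of build GRCm38.p6, 5′ to 3′ on the strand of the gene, for Sp5 chr2:70474673-70474922 on the plus strand and for Socs3 chr11:117969367-117969616 on the minus strand.
Sp5: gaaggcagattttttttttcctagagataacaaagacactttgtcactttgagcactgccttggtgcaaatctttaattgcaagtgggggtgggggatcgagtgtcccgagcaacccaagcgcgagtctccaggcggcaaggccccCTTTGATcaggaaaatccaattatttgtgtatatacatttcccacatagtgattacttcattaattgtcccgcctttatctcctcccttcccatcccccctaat
Socs3: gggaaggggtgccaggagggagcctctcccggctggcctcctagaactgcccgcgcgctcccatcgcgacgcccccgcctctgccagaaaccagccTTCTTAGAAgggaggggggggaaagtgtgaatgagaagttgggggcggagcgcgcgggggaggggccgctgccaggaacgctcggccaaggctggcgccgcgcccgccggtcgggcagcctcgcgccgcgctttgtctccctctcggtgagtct
Counted back from the start, the match begins at base -104 of Sp5 and at base -154 of Socs3. On either strand CTTTGAT was present in 1045 of 32536 windows of this length (3.21%) and TTCNNNGAA in 2291 (7.04%). The windows of Axin2, T and Lef1 held no CTTTGAT and those of Stat3, Bcl3, Klf4 and Tfcp2l1 no TTCNNNGAA. A match is a description of the sequence.

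Sp5, a zinc finger gene that Wnt signalling induces, had 49.9, 66.8 and 0.255 FPKM at day 0 and 0.111, 0.104 and 0.0439 at day 4. It was high in day 0 replicates 1 and 2 only, and it fell by 3.91 ± 1.16 (adjusted p = 0.0366), a call that was lost without any 1 of the other 5 KO libraries (adjusted p at most 0.149) and that without day 0 replicate 3 stood at 4.98e-05. Axin2, a negative regulator of the pathway, was at 28.7, 26.0 and 2.44 FPKM at day 0 and at 2.11, 2.36 and 2.58 at day 4. Its groups overlapped through replicate 3, with an adjusted p of 0.0514, or 0.000304 without that library. T, which encodes Brachyury and marks primitive streak, was at 16.1, 9.45 and 0.0715 FPKM against 0.273, 0.0535 and 0.248 (adjusted p = 0.0785, and 0.000964 without replicate 3). Cdx1, a homeobox gene, had 76.1, 64.1 and 0.745 FPKM at day 0 and 0.0821, 0.0645 and 0.0272 at day 4, and fell by 4.28 ± 1.07 (adjusted p = 0.0180). The call of Cdx1 was lost without day 0 replicates 1 or 2 or day 4 replicate 3, with an adjusted p of at most 0.0815. Without day 0 replicate 3 the difference of Cdx1 was -6.07 (adjusted p = 4.15e-06 in limma).

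Over the Wnt list 13 of 21 members were tested, 2 rose and 3 fell (all genes 11.8% and 7.56%), and the median was -0.12, or -0.20 without day 0 replicate 3 and -0.29 without day 4 replicate 3. Sfrp2, a secreted inhibitor of Wnt, went from 1.88, 0.631 and 2.37 FPKM to 15.9, 26.2 and 23.4, a rise of 3.16 ± 0.34 (adjusted p = 0.000324) that held. Sfrp1, of the same family, went the other way, from 38.8, 37.6 and 9.41 FPKM to 1.29, 1.98 and 7.94. Its lowest day 0 and highest day 4 value were close, and its fall of 2.68 ± 0.83 (adjusted p = 0.042) was lost without day 0 replicates 1 or 2, day 4 replicates 1 or 2 or any WT library of day 0. Among the receptors Fzd5 fell from 22.9, 17.1 and 19.6 FPKM to 4.15, 8.55 and 6.56 (-1.53 ± 0.28, adjusted p = 0.00431) and Fzd8 rose from 1.26, 0.853 and 1.24 to 3.49, 2.80 and 3.87 (1.05 ± 0.23, adjusted p = 0.0104, or 0.0509 without day 0 replicate 2). The co-receptors Lrp5 and Lrp6 stayed within 0.12 log2 units of their day 0 means.

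FGF signalling to ERK drives ES cells out of the naive state. The list followed here holds FGF ligands and receptors beside genes that this signalling induces. Of 17 members 15 were tested, 5 rose and 0 fell (all genes 11.8% and 7.56%), with a median of 0.51. Of the induced genes Dusp4 and Spry1 rose, while Spry2, Spry4, Spred1, Dusp6, Etv4 and Etv5 did not pass. Fgf5 is the ligand described above. Dusp4, a phosphatase of ERK, was at 0.0221, 0.0960 and 2.48 FPKM at day 0 and at 16.1, 22.5 and 18.1 at day 4. The groups were well apart with replicate 3 as the highest day 0 library, and Dusp4 rose by 3.65 ± 0.41 (adjusted p = 0.000353). Fgfr2, an FGF receptor, rose from 0.0192, 0.0893 and 0.689 FPKM to 4.05, 12.4 and 8.29 (2.80 ± 0.31, adjusted p = 0.000353). Fgf15 rose from 0.187, 0.0339 and 3.72 to 19.0, 8.84 and 7.85 (2.74 ± 0.55, adjusted p = 0.00625). Spry1, a feedback inhibitor, rose by 1.50 ± 0.42 (adjusted p = 0.0282), a call lost without day 0 replicates 1 or 2 or day 4 replicates 2 or 3 (at most 0.122), and the other 4 calls held. Spry4, Etv4 and Dusp6 had their highest day 0 value in replicate 3. Dusp6 was at 1.92, 0.347 and 14.1 FPKM at day 0 and 18.6, 13.3 and 19.5 at day 4 (adjusted p = 0.0634, and 0.00312 without replicate 3). Without that library the list had 7 rises and 0 falls, and its median was 1.37.

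DNA methylation enzymes moved in both directions. Cells leaving the naive state are known to gain DNA methylation, which Dnmt3a and Dnmt3b set and Dnmt1 with Uhrf1 maintains, while Tet enzymes oxidise it. Of 10 members tested 3 rose and 3 fell (all genes 11.8% and 7.56%), with a median of 0.34, and without day 0 replicate 3 the list had 5 rises and 2 falls. Dnmt3b went from 15.2, 15.3 and 49.7 FPKM to 237, 146 and 201, and Dnmt3a from 2.95, 1.82 and 13.6 to 44.9, 35.3 and 42.0. Tdg, a glycosylase that removes oxidised cytosine, rose by 0.99 ± 0.21 (adjusted p = 0.00758). Tet2 fell from 32.8, 47.1 and 31.9 FPKM to 6.96, 6.37 and 3.46, with no day 4 value near those of day 0 (-2.56 ± 0.26, adjusted p = 0.000231). Uhrf1 fell by 0.99 ± 0.14 from 141, 153 and 135 to 71.8, 76.9 and 65.6 FPKM. The fall of Dnmt1 (69.0, 59.0 and 69.4 to 35.1, 54.6 and 47.5 FPKM, adjusted p = 0.0495) was lost in 11 of the 12 fits that left out a library, and the other 5 calls held. Dnmt3l, a cofactor of the de novo enzymes, was at 13, 1.31 and 132 FPKM at day 0 and 32.1, 38.3 and 22.0 at day 4, so that the day 0 libraries lay on both sides of day 4.

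Of the neural progenitor genes, Sox4 and Sox11 rose and Vim fell. Of 20 members 14 were tested, 2 rose and 1 fell (all genes 11.8% and 7.56%), with a median of 0.92. At 8 of the 14 the day 4 libraries lay above all day 0 libraries (all genes 21.9%). Sox1, the earliest specific marker of the neural lineage, was at 0.854, 0.722 and 1.8 FPKM at day 0 and at 0.990, 1.27 and 7.08 at day 4. Replicates 1 and 2 of day 4 lay within the day 0 range and replicate 3 above it, with a difference of 0.68 ± 0.62 (adjusted p = 0.469). Pax6, a progenitor transcription factor, had 0.0623, 0.0451 and 0.496 FPKM at day 0 and 0.228, 0.475 and 2.37 at day 4, again with replicate 3 of day 4 the highest (0.63 ± 0.55, adjusted p = 0.451). Sox3, a relative of Sox2 made in early neural plate, was at 0.0799, 0 and 1.13 FPKM against 2.68, 2.09 and 4.45. All 3 day 4 values were above day 0 but low, and the adjusted p was 0.0945.

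The 2 rises in this list were those of the SoxC factors, which neural and many other progenitors express. Sox4 was at 2.21, 0.788 and 4.97 FPKM at day 0 and at 24.0, 29.9 and 31.1 at day 4, a rise of 3.17 ± 0.38 (adjusted p = 0.000461). Sox11 was at 0.0460, 0.00623 and 0.921 FPKM at day 0 and at 7.16, 5.23 and 10.6 at day 4, a rise of 2.73 ± 0.48 (adjusted p = 0.00369). Both were apart between the days in every library, and both calls held. Vim, an intermediate filament gene of progenitors and of many other cells, was the member that fell, from 106, 38.9 and 146 FPKM to 22.5, 16.1 and 29.7 (-1.89 ± 0.53, adjusted p = 0.0288). Its call was lost without day 0 replicates 1 or 3 or any day 4 library (at most 0.0961). Nes, the nestin gene, was at 1.13, 2.14 and 3.42 FPKM at day 0 and at 8.19, 2.31 and 10.2 at day 4, where replicate 2 stayed among the day 0 values (adjusted p = 0.176). The 6 members that were not tested, Fabp7, Hes5, Pou3f2, Pou3f3, Gpm6a and Ednrb, stayed below 1 FPKM in all 6 KO libraries. The list summed to 126, 59.6 and 172.5 FPKM at day 0 and 86.3, 80.3 and 142 at day 4, sums in which Vim is the largest term at day 0.

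Notch signalling passes between neighbouring progenitors from ligands of the Delta and Jagged families to Notch receptors, and switches on Hes and Hey genes. Of 25 members 21 were tested, 5 rose and 2 fell (all genes 11.8% and 7.56%), with a median of 0.33, and Dtx4 alone kept its call without each of the 12 libraries in turn. Among the ligands Jag1 was at 2.66, 3.50 and 2.86 FPKM at day 0 and at 0.966, 1.3 and 1.8 at day 4. The day 4 libraries were below day 0 without overlap, and the difference of -0.77 ± 0.47 did not pass (adjusted p = 0.271). Dll1 was at 0.0150, 0.0163 and 0.559 FPKM against 0.737, 1.33 and 2.52 (adjusted p = 0.0914). Jag2 was at 1.29, 1.36 and 7.48 FPKM against 3.98, 4.25 and 7.47, groups that overlapped only through replicate 3 of day 0 (adjusted p = 0.263, and 0.00946 without it).

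Among the receptors Notch3 rose from 4.20, 3.28 and 5.29 FPKM to 8.32, 8.32 and 11.8 (1.00 ± 0.28, adjusted p = 0.0269), and Notch2 went from 2.98, 3.43 and 3.20 to 3.38, 9.09 and 10.1 (0.91 ± 0.29, adjusted p = 0.0483). The Notch3 call was lost without day 0 replicates 1 or 2 or day 4 replicate 3 (at most 0.112), and the Notch2 call in 11 of 12 fits that left out a library. Notch1 was at 2.54, 4.70 and 7.49 FPKM against 2.79, 8.08 and 6.15 and did not pass. Of the Deltex genes, which encode ubiquitin ligases that act on Notch, Dtx4 rose from 0.146, 0.0651 and 1.17 FPKM to 5.62, 4.90 and 11.6 (2.51 ± 0.44, adjusted p = 0.00368) and Dtx3 from 7.41, 5.25 and 14.7 to 17, 23.9 and 25.7 (1.29 ± 0.30, adjusted p = 0.0125, lost without day 0 replicate 2 or day 4 replicate 3, at most 0.0562).

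Among the targets of Notch, Hey1 was at 0.345, 0.268 and 0.502 FPKM at day 0 and at 0.959, 1.27 and 1.66 at day 4, a low level at both days. The groups did not overlap and Hey1 rose by 0.74 ± 0.22 (adjusted p = 0.0342), a call lost without day 0 replicates 1 or 2, day 4 replicates 2 or 3 or WT day 0 replicate 3 (at most 0.121). Hes1 moved the other way, from 38.9, 43.1 and 18.9 FPKM to 9.77, 15.6 and 16.1 (-1.17 ± 0.29, adjusted p = 0.0160), and lost its call without day 0 replicates 1 or 2 or day 4 replicate 1 (at most 0.0745). Hes1 is also made in ES cells. Hes5, the Notch target typical of neural progenitors, was at or below 0.244 FPKM in every KO library and was not tested. Rfng, a glycosyltransferase that modifies Notch, fell by 0.74 ± 0.24 (adjusted p = 0.0493), and this call was lost in 8 of the fits that left out a library. The list had 7 rises and 1 fall without day 0 replicate 3, and 1 rise and 1 fall without day 4 replicate 3.

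Neuronal genes moved in both directions. Of 28 members 14 were tested, 3 rose and 3 fell (all genes 11.8% and 7.56%), with a median of 0.57. Stmn2, a regulator of microtubules in neurites that ES cells of this line also carried, was at 168, 110 and 157 FPKM at day 0 and at 29.2, 24.2 and 25.9 at day 4. The groups were widely apart, and Stmn2 fell by 2.39 ± 0.47 (adjusted p = 0.00574), a call that held. Mapt, which encodes tau, fell from 1.95, 4.21 and 2.34 FPKM to 0.251, 0.513 and 0.137 (-1.53 ± 0.28, adjusted p = 0.00439), which also held. Crmp1, a mediator of semaphorin signalling, had 0.317, 0.0191 and 17.8 FPKM at day 0 and 16.3, 26.5 and 29.9 at day 4. Replicate 3 of day 0 lay within the day 4 range, and the rise of 3.06 ± 0.86 (adjusted p = 0.0278) was 6.15e-05 in adjusted p without it. The neurofilament-related Ina showed the same spread (1.10, 0.912 and 16.1 against 14.1, 27.8 and 18.0 FPKM, adjusted p = 0.0287, or 4.84e-05 without replicate 3). The calls of Crmp1 and Ina were lost without day 0 replicates 1 or 2 or day 4 replicates 2 or 3 (at most 0.12 and 0.123). Map2, a dendritic microtubule protein gene, rose by 1.25 ± 0.32 (adjusted p = 0.0205) and the neurofilament gene Nefl fell by 1.39 ± 0.43 (adjusted p = 0.0438), and both calls were lost without day 0 replicates 1 or 2, among others (at most 0.087 and 0.144). Without day 0 replicate 3 the list had 6 rises and 4 falls and a median of 0.91, and without day 4 replicate 3 it had 0 rises and 3 falls. The proneural genes Neurog1 and Neurog2 did not reach the level needed for a test.

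Forebrain genes were low. Of 14 forebrain and eye field genes Hesx1 alone was tested, at 0.226, 0.615 and 0.347 FPKM at day 0 and 0.378, 2.02 and 1.50 at day 4 (adjusted p = 0.386), and the other 13, such as Six3 and Lhx2, were under 1 FPKM in all 6 KO libraries. Of 21 midbrain and hindbrain genes 7 were tested, 0 rose and 1 fell (all genes 11.8% and 7.56%), or 1 and 1 without day 0 replicate 3 and 0 and 0 without day 4 replicate 3.

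Of the retinoic acid genes, Crabp2, Cyp26a1 and Stra6 were among those that rose. Retinoic acid promotes neural differentiation, is bound in the cytoplasm by Crabp proteins and is cleared by Cyp26 enzymes. Of 15 members 12 were tested, 4 rose and 0 fell (all genes 11.8% and 7.56%), with a median of 0.76. Crabp2 went from 0.0789, 0.259 and 3.86 FPKM to 19.5, 18.7 and 80.0. Replicate 3 of day 4 was the highest library, and the rise was 4.09 ± 0.71 (adjusted p = 0.00337). Cyp26a1 went from 0, 0.0691 and 0 FPKM to 3.75, 0.789 and 5.51 (1.90 ± 0.42, adjusted p = 0.0107). Both calls held. Stra6, a receptor of the retinol supply, rose by 0.96 ± 0.24 (adjusted p = 0.0192), with a call that was lost without day 0 replicate 2 among others (at most 0.0718). The list had 5 rises and 1 fall without day 0 replicate 3, the fall being that of Aldh1a3, an enzyme that makes retinoic acid (adjusted p = 0.00424).

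In the BMP list 15 of 20 were tested, with 1 rise and 2 falls (all genes 11.8% and 7.56%). It had 1 rise and 4 falls without day 0 replicate 3, and 0 rises and 2 falls without day 4 replicate 3. Smad7, an inhibitor of TGF-beta and BMP signals, fell from 29.1, 29.0 and 13.9 FPKM to 3.57, 3.89 and 3.53 (-2.35 ± 0.35, adjusted p = 0.00163), a call that held. Smad6, an inhibitor of BMP signals, fell by 1.00 ± 0.25 (adjusted p = 0.0164, lost without day 0 replicate 2 or day 4 replicate 1, at most 0.0697), and Smad5 rose by 0.51 ± 0.16 (adjusted p = 0.0411), a call that was lost in 9 fits. In the Nodal list 11 of 12 were tested, and Acvr2b, a receptor, was the single call, a rise as for 11.8% of all genes (0.77 ± 0.24, adjusted p = 0.0435, lost in 9 fits). Without day 0 replicate 3 the list had 3 rises and 1 fall, and without day 4 replicate 3 it had 0 calls. Lefty1 was at 45.3, 71.4 and 66.0 FPKM at day 4 against the spread at day 0 given above (adjusted p = 0.0768, and 0.00372 without day 0 replicate 3). In the Hedgehog list 10 of 12 were tested, and Smo, the transducer of the pathway, was the single call, a rise as for 11.8% of all genes. Smo went from 4.48, 3.35 and 7.74 FPKM to 16.6, 13.5 and 20.4 (1.57 ± 0.25, adjusted p = 0.00199), a call that held. Without day 0 replicate 3 the Hedgehog list had 2 rises.

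Markers of other lineages were measured in the same libraries. Mesoderm genes had 3 of 16 members tested and 0 calls, and the list summed to 22.0, 12.5 and 4.23 FPKM at day 0 and 3.27, 1.61 and 3.05 at day 4, with Mesp1, Msgn1 and Hand2 at 0 in all 6 libraries. Endoderm genes had 11 of 20 tested with 1 rise and 0 falls (all genes 11.8% and 7.56%), and summed to 22.6, 31.6 and 28.3 FPKM at day 0 and 24.6, 24.3 and 104 at day 4. The third day 4 library thus stood above the other 5. In that library Col4a1 was at 17.8 FPKM (2.40 and 1.78 in the other day 4 libraries), Dab2 at 10.1 (1.81 and 1.61) and Cubn at 6.63 (0.871 and 0.288), genes of extraembryonic endoderm and basement membrane, while Sox17 was at 0.711 FPKM and Afp at 0. Lamb1, a laminin chain, was the member that rose (1.87, 1.18 and 9.57 to 14.1, 16.8 and 31.0 FPKM, 2.34 ± 0.64, adjusted p = 0.0249), and its call was lost without day 0 replicates 1 or 2 or day 4 replicates 2 or 3 (at most 0.109). Without day 4 replicate 3 the list had 0 rises and 1 fall, of the laminin gene Lama1 (adjusted p = 0.0312), and a median of 0.08, against 0.52 with it. Sox1, Pax6 and Crabp2 were highest of the day 4 libraries in this same replicate 3. Its part in their differences was not tested beyond the fit without it.

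Fibroblast genes had 2 of 12 members tested, Thy1 and Tagln, and both rose (all genes 11.8%). The rise of Thy1 (1.55 ± 0.50, adjusted p = 0.0478) was lost in 10 of the 12 fits that left out a library (at most 0.189). The Tagln call held (0.330, 0.518 and 0.388 to 13.4, 1.60 and 12.4 FPKM, 2.50 ± 0.52, adjusted p = 0.00775). Thy1 and Tagln are also made outside fibroblasts. The list summed to 1.08, 0.726 and 6.05 FPKM at day 0 and 21.8, 7.85 and 27.0 at day 4, with Postn and S100a4 at 0 in all 6 libraries and Col1a1 at or below 0.548 FPKM. Genes of the two-cell-like state, which rare ES cells enter, were high in 1 library. Zscan4c was at 21.7 FPKM in day 4 replicate 1 and between 0.0517 and 0.875 in the other 5, and Tcstv3 was at 21.0 FPKM there and between 0 and 1.06 elsewhere. The list summed to 91.1 FPKM in that library against 0.320 to 4.47 in the others, and 0 of 3 members tested passed. Neural crest genes had 5 of 13 members tested, with Ets1 called higher (all genes 11.8%). Trophoblast genes had 3 of 9 tested, with Krt7 called higher and Ascl2 called lower (all genes 11.8% and 7.56%). Each of these calls was lost without at least 4 of the 6 KO libraries in turn.

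**Figure D3:**
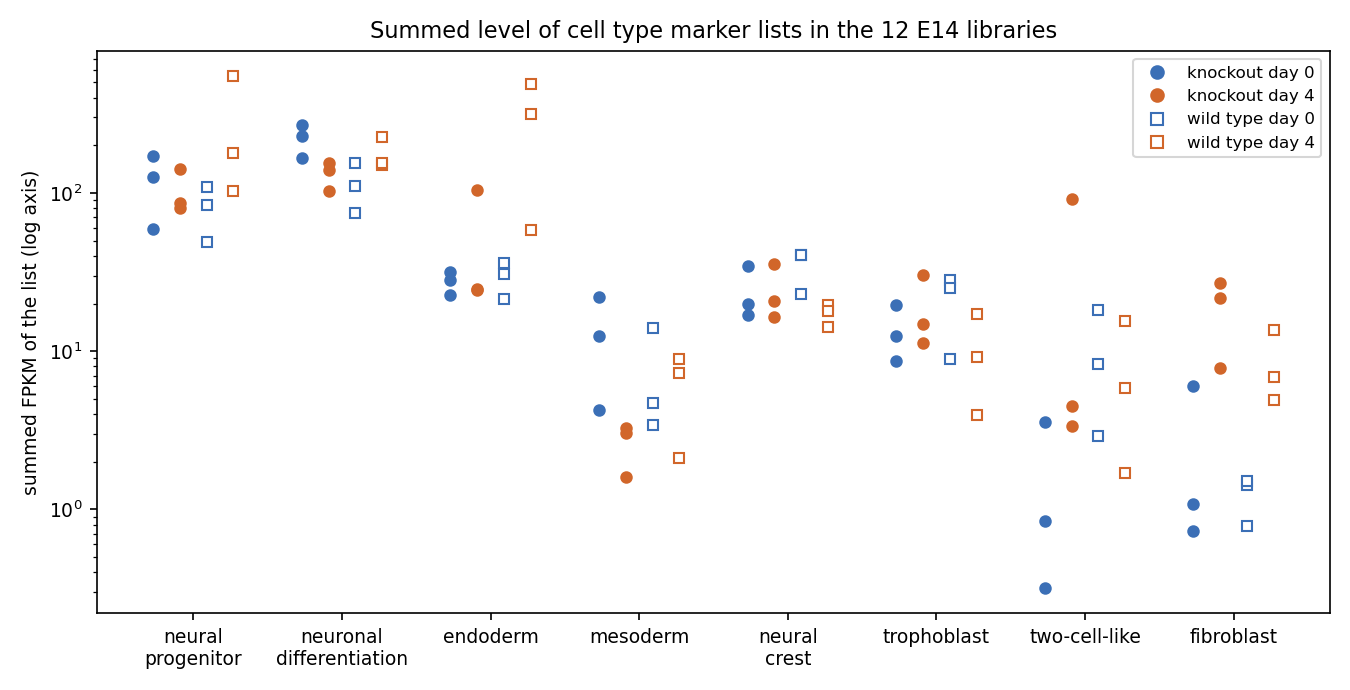
Summed FPKM, on a log axis, of 8 lists of cell type markers in each of the 12 E14 libraries (filled circles, Fyn KO; open squares, WT; blue, day 0; orange, day 4). The endoderm list reaches 104 FPKM in a single KO day 4 library and 58.1, 317 and 488 in the WT day 4 libraries, and the two-cell-like list reaches 91.1 FPKM in KO day 4 replicate 1.

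Cell cycle genes were followed as lists of S phase, G2/M and G1. Of 24 S phase genes 5 fell and 0 rose (all genes 7.56% and 11.8%), or 3 and 0 without day 4 replicate 3, with a median of -0.32. At 12 of the 24 the day 4 libraries lay below all day 0 libraries (all genes 16.8%). Rrm2, a subunit of the ribonucleotide reductase, was at 145, 145 and 146 FPKM at day 0 and at 86.5, 74.2 and 60.5 at day 4 (-0.99 ± 0.19, adjusted p = 0.00566). Mcm5, of the replicative helicase, was at 128, 134 and 124 FPKM at day 0 and at 79.1, 71.8 and 71.3 at day 4 (-0.79 ± 0.15, adjusted p = 0.00499). Cdt1, a licensing factor of replication origins, fell by 0.77 ± 0.15 (adjusted p = 0.00501). These 3 calls held, the replicates within each day being close. The falls of E2f1 and Cdc25a were smaller, at 0.57 and 0.45 (adjusted p = 0.0422 and 0.0477), and their calls were lost in 8 and 10 of the fits that left out a library. Of 28 G2/M genes 1 rose and 1 fell (all genes 11.8% and 7.56%), with a median of -0.02. The rise was that of the spindle checkpoint kinase Bub1 (27.5, 22.6 and 28.5 to 47.1, 36.7 and 45.2 FPKM, 0.69 ± 0.15, adjusted p = 0.00863), and the fall that of Birc5, which encodes survivin (148, 134 and 140 to 102, 85.9 and 79.2 FPKM, -0.66 ± 0.13, adjusted p = 0.0064). Both held. Mapre1, the microtubule end-binding gene that the study followed, was at 20.5, 19.8 and 20.6 FPKM at day 0 and 27.3, 22.1 and 22.1 at day 4 (0.21 ± 0.15, adjusted p = 0.337).

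Among 14 of 15 G1 regulators tested 1 rose and 3 fell (all genes 11.8% and 7.56%). Ccnd3, a D-type cyclin, went from 96.6, 101 and 107 FPKM to 42.5, 45.4 and 58.1 (-1.06 ± 0.15, adjusted p = 0.00101), and Cdk2 fell by 0.66 ± 0.12 (adjusted p = 0.0045), calls that held. Cdkn1a, which encodes the inhibitor p21, fell from 110, 111 and 47.5 FPKM to 37.0, 33.4 and 22.1 (-1.44 ± 0.36, adjusted p = 0.0181, lost without day 0 replicates 1 or 2 or day 4 replicate 3, at most 0.0807). Rb1 rose by 1.05 ± 0.29 (adjusted p = 0.0252), a call lost without any KO library but day 0 replicate 3, and without day 4 replicate 3 the list had 0 rises and 2 falls. In the list of Trp53 and its targets 14 of 15 were tested, and 3 rose and 3 fell (all genes 11.8% and 7.56%), or 6 and 3 without day 0 replicate 3 and 3 and 1 without day 4 replicate 3. Pmaip1, which encodes the pro-apoptotic protein Noxa, rose from 1.4, 0.563 and 2.56 FPKM to 23.8, 5.10 and 15.5 (2.52 ± 0.45, adjusted p = 0.00391), and Trp53inp1 rose by 1.06 ± 0.20 (adjusted p = 0.00506). Sesn2, a stress-induced regulator of growth, fell by 0.73 ± 0.14 (adjusted p = 0.00581). The falls of Trp53 and Gdf15 and the rise of Ccng1 were lost without day 4 replicate 1, among other libraries (at most 0.075, 0.0828 and 0.0829).

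Cholesterol synthesis genes rose or did not pass. Of 17 members tested 8 rose and 0 fell (all genes 11.8% and 7.56%), with a median of 0.67. At 13 of the 17 the day 4 libraries lay above all day 0 libraries (all genes 21.9%). Dhcr7, which makes the last step to cholesterol, was at 9.65, 5.29 and 12.5 FPKM at day 0 and at 22.3, 22.7 and 24.9 at day 4 (1.33 ± 0.26, adjusted p = 0.00598). The call of Dhcr7 held, and those of Hmgcs1, Mvd, Idi1, Fdps, Fdft1 and Cyp51 were lost without day 4 replicate 3, so that 2 rises were left without that library. Srebf2, the transcription factor of the pathway, was at 47.4, 43.6 and 41.0 FPKM against 35.1, 51.6 and 52.9 and did not pass.

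Glycolysis genes showed 2 rises and 1 fall among 21 tested (all genes 11.8% and 7.56%). Slc2a1, the glucose transporter Glut1, was at 142, 48.6 and 162 FPKM at day 0 and at 591, 457 and 847 at day 4, a rise of 2.54 ± 0.48 (adjusted p = 0.00499). Hk2, a hexokinase, fell from 92.4, 71.7 and 65.4 FPKM to 40.7, 20.5 and 23.2 (-1.46 ± 0.27, adjusted p = 0.00477). Both calls held. Pdk1 rose from 19.9, 5.46 and 35.7 FPKM to 67.1, 69.7 and 70.7 (adjusted p = 0.0411), and this call was lost in 7 fits. The other 18 members did not pass, and of these Gapdh was at 3480, 3635 and 3474 FPKM at day 0 and 3744, 3290 and 3853 at day 4.

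Genes of adhesion and of cell contact changed individually. Among cadherins and epithelial genes 17 of 18 were tested, and 4 rose and 1, Vim, fell (all genes 11.8% and 7.56%). Without day 0 replicate 3 the list had 6 rises and 2 falls, and without day 4 replicate 3 it had 2 rises and 0 falls. Cldn6, a tight junction gene of the epiblast, rose from 0.469, 0.680 and 12.4 FPKM to 57.1, 73.4 and 101 (4.57 ± 0.93, adjusted p = 0.00685), a call that held. Esrp1, a splicing factor of epithelial cells, went from 0.250, 0.0143 and 8.58 FPKM to 17.6, 26.6 and 18.3 (3.22 ± 0.72, adjusted p = 0.0107, or 0.0511 without day 0 replicate 2). Cldn7 and Krt18 rose by 2.87 ± 0.68 and 2.56 ± 0.70, calls lost without day 0 replicate 2 or day 4 replicate 3, and for Krt18 also without day 0 replicate 1 (at most 0.0639 and 0.107). The cadherin switch of neural induction, from Cdh1 to Cdh2, was not called on either side. Cdh1 was at 82.3, 98.5 and 74.6 FPKM at day 0 and at 100, 109 and 103 at day 4, and Cdh2 at 0.810, 0.176 and 0.681 against 1.63, 1.59 and 2.92. In the axon guidance list 18 of 27 were tested, and 3 rose and 2 fell (all genes 11.8% and 7.56%), or 2 and 1 without day 4 replicate 3. Sema6a went from 0.0356, 0.193 and 0.145 FPKM to 17.4, 9.95 and 23.1 (3.92 ± 0.39, adjusted p = 0.000219) and Efnb2, an ephrin ligand, from 0.210, 0.266 and 1.25 to 11.7, 12 and 14.7 (3.18 ± 0.31, adjusted p = 0.000203). Epha4, an ephrin receptor, fell from 35.4, 41.4 and 14.8 FPKM to 4.00, 4.46 and 3.75 (-2.52 ± 0.53, adjusted p = 0.00808). These 3 calls held. Epha1 rose by 1.79 ± 0.50 (adjusted p = 0.0278) and Ntn1, which encodes the cue netrin, fell by 2.17 ± 0.64 (adjusted p = 0.0355), and each call was lost without at least 4 KO libraries in turn (at most 0.113 and 0.127). Of the chromatin remodeller subunits that change when neurons form, 12 of 14 were tested, and Smarca2 alone was called, a rise as for 11.8% of all genes. Smarca2 went from 0.0766, 0.212 and 0.363 to 1.41, 1.16 and 2.00 FPKM (1.04 ± 0.31, adjusted p = 0.0359), a call lost without any KO library but day 0 replicate 3 (at most 0.123).

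The Src family, to which Fyn belongs, had 8 of 10 members tested, and 3 fell and 0 rose (all genes 7.56% and 11.8%). Yes1, the member known to act in ES cells under LIF, fell from 28.1, 31.8 and 13.9 FPKM to 9.87, 10.4 and 9.60 (-1.15 ± 0.27, adjusted p = 0.0127). Lyn fell from 3.99, 3.56 and 1.74 FPKM to 0.406, 0.641 and 1.14 (-1.22 ± 0.31, adjusted p = 0.0184). The Yes1 and Lyn calls were lost without day 0 replicates 1 or 2 (at most 0.0621 and 0.0768), and that of Lyn also without day 4 replicates 1 or 2. Src itself was at 16.5, 15.9 and 10.1 FPKM against 9.47, 7.55 and 11.5 (adjusted p = 0.137), and Csk, the kinase that restrains the family, at 16.9, 14.9 and 16 against 15.5, 22.6 and 22.1 (adjusted p = 0.26).

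**Figure D4:**
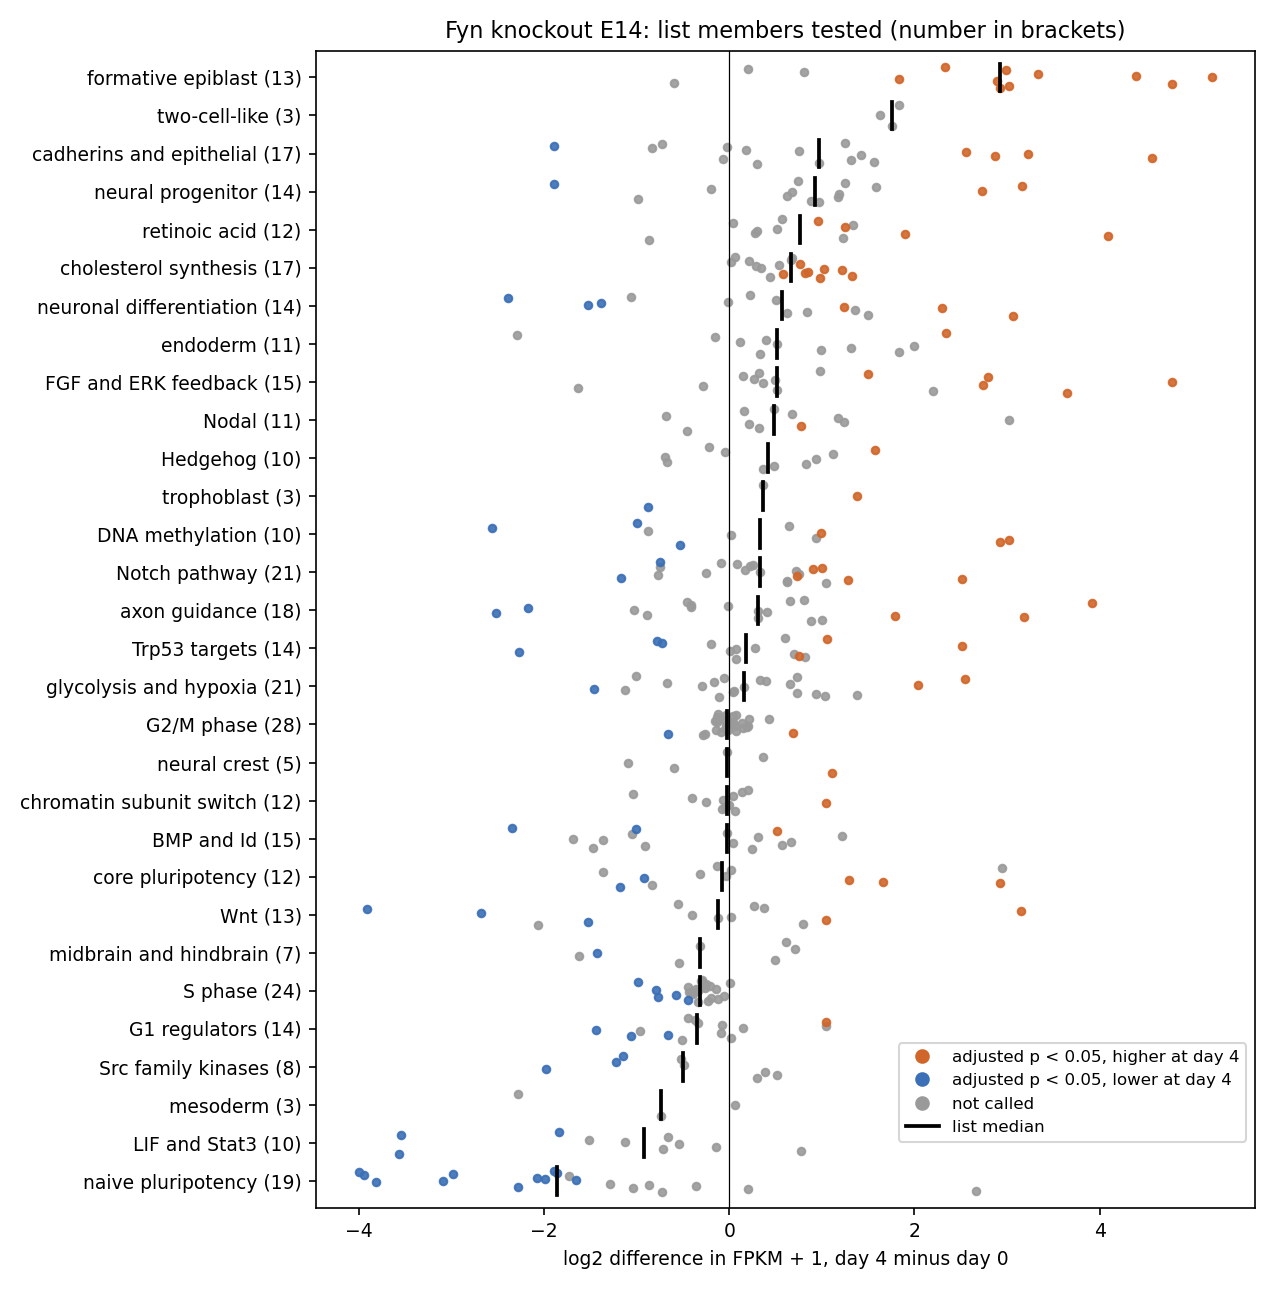
Difference in log2(FPKM + 1), day 4 minus day 0 in the Fyn KO line, of the tested members of each list with at least 3 of them (orange, risen; blue, fallen; grey, did not pass the test; black bar, list median). The formative list has its median at 2.93 and the naive list at -1.86, while the G2/M genes lie around -0.02.

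Over the 32 lists together, 387 of 523 genes were tested, and 65 rose and 50 fell (all genes 11.8% and 7.56%). The lists therefore hold a small share of the calls, and the genes with the largest differences of all were partly outside them. Among genes that passed the test with groups apart, the largest rise was that of Car4, a membrane-bound carbonic anhydrase, from 0.0471, 0.206 and 1.20 FPKM to 121, 90.6 and 187. Its day 4 values were all above 90 FPKM, and the difference was 6.51 ± 0.40 (adjusted p = 1.49e-05). Otx2, Fgf5, Cldn6 and Pou3f1, described above, followed among the first 6 together with Emb, which encodes embigin, a chaperone of a lactate transporter. Emb went from 5.42, 0.901 and 43.3 FPKM to 181, 157 and 210 (4.48 ± 0.85, adjusted p = 0.00486). Ramp2, Arl4c, Enpp3, Pim2, Crabp2 and Cthrc1 made up the 12 largest, with differences from 4.02 to 4.36. Pim2, a serine/threonine kinase gene, was at 5.00, 5.49 and 9.77 FPKM at day 0 and at 192, 85.6 and 145 at day 4. These 12 calls held.

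Of the 12 largest falls the circuit genes Tfcp2l1, Tbx3, Klf4 and Bcl3 and the Wnt targets Cdx1 and Sp5 are described above. Fetub, which encodes fetuin-B, fell from 30.6, 41.3 and 26.8 FPKM to 1.49, 0.503 and 1.02 with closely spaced replicates (-4.09 ± 0.22, adjusted p = 6.12e-06). Laptm5, a lysosomal membrane gene, fell from 49.2, 64.6 and 35.1 FPKM to 3.16, 6.57 and 0.940 (-3.64 ± 0.40, adjusted p = 0.000347). Aqp3, an aquaporin, fell from 38.6, 122 and 9.52 to 1.46, 2.24 and 1.08, and Fam25c from 389, 886 and 72.3 to 31.5, 23.0 and 11.2 FPKM. Their day 0 libraries were far apart, with replicate 3 the lowest, and all day 4 values were lower still. The largest fall by the fitted value, that of Atp6v0c-ps2 (44.4, 76.4 and 22.3 FPKM to 0.00155, 3.97 and 0.00228), is that of a pseudogene which may share reads with Atp6v0c. Without day 0 replicate 3 its difference was -5.12, and those of Cdx1 and Sp5 were larger in size, at -6.07 and -5.76. The remaining one, 2210409E12Rik, fell from 39.1, 138 and 10.6 FPKM to 0, 5.41 and 0.949 (adjusted p = 0.0284), a call that was lost without 4 of the KO libraries in turn.

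In FPKM rather than on the log scale, the called genes with the largest rise in mean level were Ppia, Rps21, Mif, Tpt1 and Gpx4. Mif, which encodes a cytokine made by many cells, went from 1258 ± 420 FPKM to 2567 ± 216 (SD, n = 3), and Gpx4, a peroxidase that protects membrane lipids, from 411 ± 158 to 1169 ± 165. The calls of Ppia, Rps21, Tpt1 and Gpx4 were each lost without at least 4 KO libraries in turn, and that of Mif held. The largest falls in mean level were those of Fam25c, Asns, Pou5f1, Hspb1 and Spp1. Asns, the asparagine synthetase, was at 403 ± 154 FPKM at day 0 and 75.3 ± 21.2 at day 4, and Spp1, which encodes osteopontin, at 352 ± 101 and 78.1 ± 22.1. Both calls held, while that of Hspb1 (453 ± 145 to 176 ± 68.0 FPKM) was lost without 5 KO libraries in turn.

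The WT line was compared over the same days to show where the KO line differed. In WT 3166 genes passed, 25.8% of those tested (15.5% higher, 10.3% lower). In WT, libraries of the same number deviated together (correlations of 0.199 to 0.224), and with the replicate number as a block within each line, a fit chosen after seeing the data, 3365 genes passed in WT. Without WT day 0 replicate 2 or 3 the count was 1843 or 2007. Of the genes, 1708 passed in the same direction in both lines, which is 72.1% of the KO calls and 53.9% of the WT calls, and 0 passed in opposite directions. The test of the difference between the changes, an interaction contrast in the same limma fit, called 0 genes at an adjusted p below 0.05, the smallest being 0.577. An unadjusted p below 0.05 was found for 537 genes (4.38%), a share no larger than this threshold would give without any difference. With the replicate number as a block common to both lines 2 genes passed, Gpc3 and Capg, both with an adjusted p of 0.0468. With a block within each line 0 passed, the adjusted p of both being 0.229, and 759 genes had an unadjusted p below 0.05. A difference between the lines was thus called for at most 2 genes in these 3 fits over all libraries, and the values that follow are set side by side with the unadjusted p of the contrast without a block. The naive and formative lists had medians of -2.01 and 3.11 in WT, near those of the KO line at -1.86 and 2.93. Of 14 neural progenitor genes tested 10 rose in WT (all genes 15.5%), with or without a block, and the median was 2.04. In the KO line 2 rose (all genes 11.8%) and the median was 0.92. Members could pass the filter through WT day 4 alone, so the list counts and medians cannot by themselves show a difference between the lines. Pax6, for one, was at 26.8, 3.71 and 6.77 FPKM in WT and 0.228, 0.475 and 2.37 in the KO line at day 4. The list summed at day 4 to 546, 103 and 179 FPKM in WT, where replicate 1 stood above the others, and to 86.3, 80.3 and 142 in the KO line. Sox1 differed by 3.04 in WT and by 0.68 in the KO line (unadjusted p = 0.0203 in limma), from 1.90, 0.662 and 0.986 FPKM to 47.2, 7.81 and 11.6 in WT. WT day 4 replicate 1 was the highest of all, and the highest KO value, 7.08, was just under the lowest of WT at day 4.

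Pax6 differed by 3.12 in WT and 0.63 in the KO line (unadjusted p = 0.00786), and Cyp26a1 by 3.99 and 1.90 (unadjusted p = 0.00476). Jag1 differed by 1.14 and -0.77 (unadjusted p = 0.0148), and Hey1 by 0.70 and 0.74 (unadjusted p = 0.897). Of 11 endoderm genes tested 7 rose in WT (all genes 15.5%), or 8 with either block, and the median was 2.57. In the KO line 1 rose (all genes 11.8%) and the median was 0.52, or 0.08 without KO day 4 replicate 3. The list summed at day 4 to 58.1, 317 and 488 FPKM in WT. Members could pass the filter through these libraries alone, so its counts and medians cannot by themselves show a difference between the lines. Among the genes that fell in the KO line, Stmn2 differed by -2.39 there and by 0.40 in WT (unadjusted p = 0.00129). With a block within each line the unadjusted p in limma was 0.00255 for Sox1, 0.00528 for Pax6 and 0.00687 for Cyp26a1. It was 0.00506 for Jag1, 0.896 for Hey1 and 0.00122 for Stmn2. None of these genes passed the adjusted test of the difference over all 12 libraries, with or without a block, and Stmn2 passed without WT day 0 replicate 1 (adjusted p = 0.0358 in limma).

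**Figure D5:**
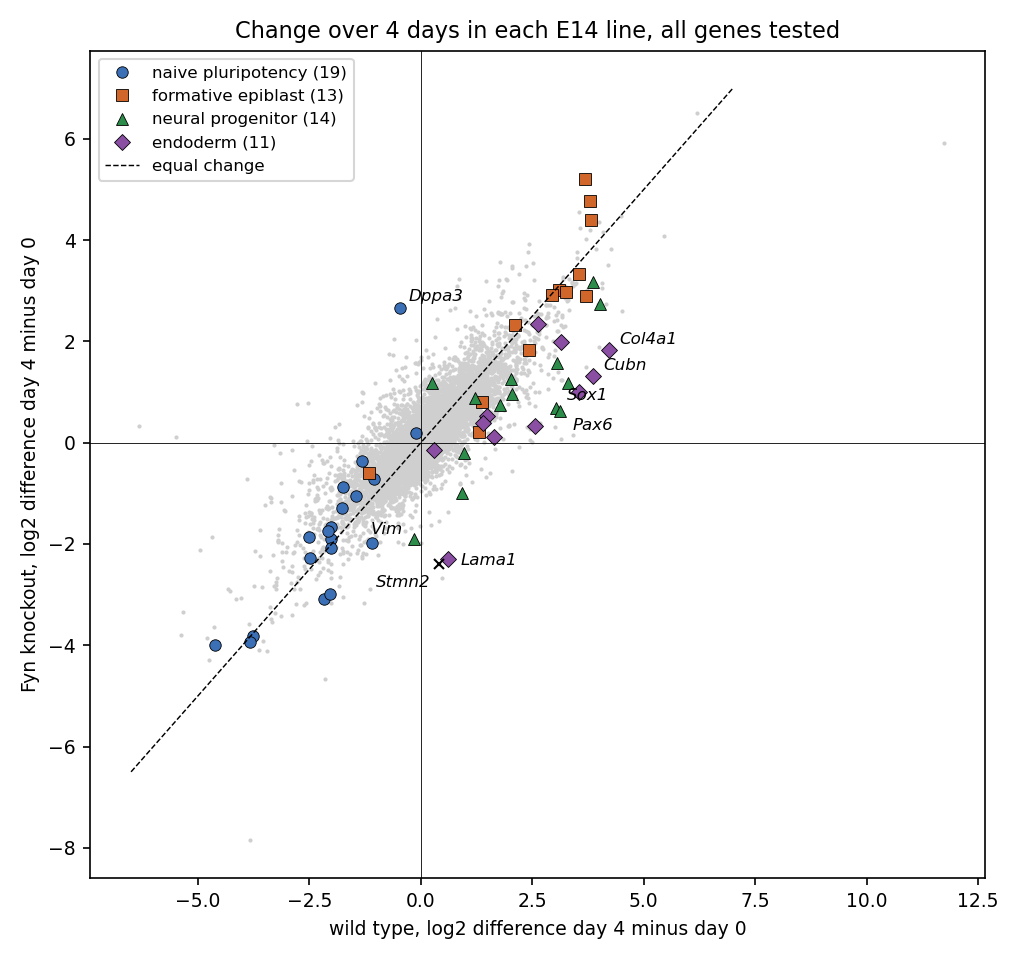
Difference in log2(FPKM + 1), day 4 minus day 0, of each of the 12257 genes tested in WT (horizontal) and in the Fyn KO line (vertical), with 4 lists marked, Stmn2 as a cross and the line of equal change dashed. Dppa3 lies above the line, while Sox1 and Pax6 lie below it, at 3.04 and 3.12 in WT against 0.68 and 0.63 in the KO line, and no gene passed the adjusted test of the difference in the fit without a block.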

How the data were processed

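RNA of E14 mESCs was sequenced from Nextera XT libraries. The deposited table holds FPKM values per gene that the authors made from their reads. The submitters' processing notes name TopHat2 2.0.8b, Cufflinks 2.1.1 and the build mm10, while the study's methods give other versions and another build, and which of them made these values is not given in the sources used here. Depth cannot be had from the table, so no counting error is given.

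Libraries were grouped by their labels into 4 groups of 3. All 12 were fitted together in limma 3.58.1 (R 4.3.3) on log2(FPKM + 1) with a trended prior variance, which left 8 residual degrees of freedom, over genes with at least 1 FPKM in at least 3 libraries. P-values were adjusted by Benjamini-Hochberg at 0.05 over the 12257 genes. The contrasts were day 4 against day 0 in the KO line, the same in WT, and their difference. No column of unmapped samples was present (0). The script was tested on simulated data. Figures were drawn with matplotlib 3.10.9.

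Genes named are the targeted and the study's followed genes (Fyn, Sox1, Jag1, Hey1, Mapre1), the 12 largest rises and 12 largest falls among called genes whose groups did not overlap, the 5 largest rises and falls in mean FPKM, and members of 32 lists. The members and lists were chosen with earlier results of these data known. Alternatives were another pseudocount, 2 other filters, upper-quartile and quantile scaling, no variance trend, KO libraries only, a replicate block, and each library left out. Deviations from the group means of same-numbered libraries of the 2 days correlated at 0.0239, 0.0899 and 0.00112 in the KO line, whose numbers were not taken to pair libraries, and at 0.199, 0.22 and 0.224 in WT, where they were. The WT total, the WT rises of the neural progenitor and endoderm lists and the contrast between the lines are therefore given with a block too. Some genes of the lists are counted but not reported here by name.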

Additional observations from a re-analysis of the deposited data

How the results depend on the processing

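The number of genes called between day 4 and day 0 of the KO line ranged from 1043 to 3064 when each library was left out. It stayed within 1.5 times of 2370 under the other alternatives, from 1683 with KO libraries only to 2779 with the replicate block and 2528 with a block within each line. The WT count of 3166 ranged from 1843 to 3531 when each library was left out. The contrast between KO and WT changes, with 0 calls, gave 1 without a filter, 2 with the replicate block, 0 with a block within each line, and 0 to 5 when each library was left out (5 without WT day 0 replicate 1, 1 without WT day 4 replicate 3). With a pseudocount of 0.1 the median difference was 1.76 for the neural progenitor list, 1.32 for forebrain and eye field, 1.41 for retinoic acid, 1.45 for cadherins and epithelial genes and 3.13 for fibroblast genes, against 0.92, 0.66, 0.76, 0.97 and 2.02 with a pseudocount of 1. Quantile normalization gave 0.0394 for axon guidance against 0.31. Without day 0 replicate 3 or without day 4 replicate 3, a choice made after seeing the data, medians ranged from 0.76 to 1.18 for retinoic acid, 0.0523 to 0.485 for trophoblast, -0.0318 to 0.109 for the chromatin subunits and 0.0145 to 0.0841 for axon guidance. The cause was not tested. Of 409 genes followed, 0 reversed under any alternative. Under quantile normalization 12 gained and 17 lost a call, under the block 22 gained and 3 lost one, and under the block within each line 20 gained and 9 lost one. Unknown depth limits what can be said of genes near 0 FPKM.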

Other observations

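Genes with the smallest p of the difference between KO and WT changes were looked up after their values were seen. None passed adjustment in limma over all 12 libraries without a replicate block. Among these genes Cryge and Gm5480 passed when WT day 0 replicate 1 was left out (adjusted p = 0.0154 and 0.016 in limma). Gpc3, which encodes a cell surface proteoglycan, was at 27.8, 26.2 and 57.5 FPKM at day 0 and 30.9, 30.1 and 52.2 at day 4 in the Fyn KO line. In WT it was at 5.01, 1.71 and 5.36 FPKM at day 0 and 30.3, 40.5 and 54.0 at day 4. The KO line thus held at day 0 a level that WT reached at day 4 (unadjusted p = 0.000117 in limma, adjusted p = 0.577, or 0.0468 with a block common to both lines and 0.229 with a block within each line). Ndufs7, a subunit gene of respiratory complex I, went from 48.5, 56.4 and 60.0 FPKM to 24.7, 18.2 and 17.4 in the KO line, where it fell by 1.42, and from 98.3, 78.0 and 92.4 to 73.6, 62.7 and 92.6 in WT (unadjusted p = 0.000509 in limma, adjusted p = 0.624 for the difference).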
